A study of Homo sapiens with 9 samples.

Results

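The genes described here are 37 genes of protein folding, quality control and stress signalling in the endoplasmic reticulum (ER), followed in CAL-1 cells after knockdown of KHSRP. They were taken by symbol from the 25540 gene symbols of the TPM table, and all 37 were found in it. CAL-1 cells are human and were grown out of BPDCN, blastic plasmacytoid dendritic cell neoplasm, which is an aggressive blood cancer of plasmacytoid dendritic cell precursors, and KHSRP is an RNA-binding protein known for promoting mRNA decay. In all, 3 groups, of 3 RNA sequencing libraries each, were analysed: KHSRPi#1 and KHSRPi#2, in which KHSRP was silenced by CRISPR interference, and NTC, the control, labelled as wild type in genotype. The labels do not say what #1 and #2 stand for, nor how long the knockdown had run. All 9 libraries carry 1 batch label, and nothing in the labels says that replicates were separate cultures, so each p-value reflects the spread among these libraries, and that spread may be technical. Values are TPM, a share of all transcripts in a library that corrects for transcript length so that levels of different genes can be set side by side.

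Secreted and membrane proteins enter the ER through the SEC61 channel, lose their signal peptide there and fold with the help of chaperones, lectins and disulfide isomerases. Proteins that fail to fold are taken back out and degraded, and folded ones leave in COPII vesicles. When unfolded protein builds up, the sensors IRE1 (ERN1), PERK (EIF2AK3) and ATF6 set off the unfolded protein response. IRE1 splices the mRNA of XBP1, ATF6 is cleaved to an active factor, and both factors raise the transcription of chaperone and degradation genes, while PERK slows translation. Plasmacytoid dendritic cells are known for a large ER and for secreting type I interferon, and in mice XBP1 is known to be needed for the development and survival of dendritic cells.

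The binding sequences through which ATF6 and XBP1 are known to act are short and can be read directly in the promoters of these genes. A long element, CCAAT followed by any 9 bases and CCACG, and a short element, ATTGG followed by any 1 base and CCACG, were searched on both strands with the shorter sequence TGACGTG, from 250 bases before to 50 bases after each RefSeq transcript start (GRCh38.p14). Promoters were listed for 32 of the 37 genes. The long element was in 7 of these 32 genes (21.9%), against 25 of 27305 genes in the whole promoter table (0.0916%). The short element was in 3 (9.38%), against 19 of all genes (0.0696%), and TGACGTG was in 4 (12.5%), against 654 of all genes (2.40%). The counts over all genes include the members. The elements were chosen as those of this response, so these shares are descriptions and no test. A match describes the letters and does not show binding. The stretches below were chosen because the 3 genes were among those with the lowest levels in the replicate 3 libraries relative to the others, and are printed 5′ to 3′ on the strand of the gene with the element letters in capitals.
HSPA5, 131 bases at chr9:125241363-125241493: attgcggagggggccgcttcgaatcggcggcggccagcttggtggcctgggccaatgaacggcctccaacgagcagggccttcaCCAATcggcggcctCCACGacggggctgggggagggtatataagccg
CALR, 201 bases at chr19:12938359-12938559: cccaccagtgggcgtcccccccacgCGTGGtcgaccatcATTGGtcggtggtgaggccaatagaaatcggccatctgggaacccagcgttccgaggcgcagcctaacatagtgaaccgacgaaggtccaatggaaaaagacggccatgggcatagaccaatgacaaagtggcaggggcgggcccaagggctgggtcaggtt
HYOU1, 191 bases at chr11:119057225-119057415: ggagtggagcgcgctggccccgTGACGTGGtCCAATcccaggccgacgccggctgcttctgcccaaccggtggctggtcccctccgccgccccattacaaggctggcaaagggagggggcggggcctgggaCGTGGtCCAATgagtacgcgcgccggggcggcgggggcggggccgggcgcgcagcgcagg
HSPA5 and CALR hold the long element, HSPA5 in the forward direction and CALR in the reverse direction, which reads CGTGG before ATTGG. HYOU1 holds 2 short elements, both in reverse, and the first overlaps TGACGTG.

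The other genes with a long or short element are shown by the element and 5 bases on each side, so that the letters between the fixed parts can be compared.
CRELD2, chr22:49918549-49918577: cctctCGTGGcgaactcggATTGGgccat
HSP90B1, chr12:103930211-103930239: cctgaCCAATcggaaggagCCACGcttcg
HSP90B1, chr12:103930316-103930344: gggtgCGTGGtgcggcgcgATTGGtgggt
CANX, chr5:179698773-179698801: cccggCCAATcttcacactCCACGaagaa
PDIA6, chr2:10812848-10812876: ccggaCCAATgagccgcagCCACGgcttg
XBP1, chr22:28800598-28800626: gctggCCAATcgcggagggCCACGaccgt
SDF2L1, chr22:21642109-21642129: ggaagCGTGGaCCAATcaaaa
HERPUD1, chr16:56932020-56932040: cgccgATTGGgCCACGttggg
HSP90B1 has 2 long elements in opposite directions. SDF2L1 and HERPUD1 have the short element, SDF2L1 in reverse and HERPUD1 forward, and the remaining lines are long elements. The elements of CRELD2, HSP90B1, CANX and PDIA6 lie upstream of a RefSeq start but inside the longer gene span that GENCODE 29 gives, and the others lie before that span. TGACGTG was found in HYOU1, SEC61A1, SSR3 and TXNDC5.

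The libraries had between 13966 and 14462 symbols above 0, and 10939 genes with a mean of at least 1 TPM were tested. KHSRP was between 33.7 and 36.5 TPM in the 6 knockdown libraries, against 216 to 253 TPM in the 3 NTC libraries. In every group replicate 3 lay far from the other libraries: on the first principal component, with 38.3% of the variance, they lay between 12.3 and 14.1, against −8.79 to −3.96 in the other 6. Of 12 plasmacytoid dendritic cell markers, 9 had a mean of at least 1 TPM. LILRA4 and PTCRA were lower, with means of 0.88 and 0.66 TPM, and IL3RA was listed at 0 in every library. The reason for that 0 was not tested. CD3D of the T cell markers, and FCGR3A, S100A8 and S100A9 of the monocyte markers were also listed at 0 throughout. Other genes of the same lists were present: CD28 of the T cell list lay between 25.77 and 29.45 TPM. LYZ of the monocyte list lay between 36.63 and 90.75 TPM. Results that involve replicate 3 are therefore given separately from those of the knockdown.

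The 37 genes together made up 10671, 10483 and 10124 TPM in the replicate 3 libraries of KHSRPi#1, KHSRPi#2 and NTC, and between 11236 and 12245 TPM in the other 6, or 1.01% to 1.22% of all transcripts. CANX, the membrane-bound lectin chaperone of glycoproteins, was the most abundant member with a mean of 1793 TPM over the 9 libraries, in place 84 of all symbols. HSP90B1, the ER form of HSP90 also called GRP94, followed with 1494 TPM, and CALR, the soluble lectin chaperone, with 1286 TPM. The sensors were far lower, at 52.1 TPM for ERN1, 35.4 TPM for ATF6 and 19.5 TPM for EIF2AK3. XBP1 stood at 86.5 TPM, a value per gene that does not separate spliced from unspliced mRNA.

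The genes below the filter were TXNDC5, a disulfide isomerase, and EDEM2, a mannosidase that marks glycoproteins for degradation. TXNDC5 lay between 0.379 and 0.674 TPM and EDEM2 between 0.127 and 0.404 TPM, and neither was tested. RefSeq places each inside a longer readthrough gene that shares its sequence: TXNDC5 (chr6:7881517-7910788) inside BLOC1S5-TXNDC5 (chr6:7881250-8064414), and EDEM2 (chr20:35115364-35147336) inside MMP24-AS1-EDEM2 (chr20:35115364-35278122). In the table the readthrough genes were also near 0, at most 0.0144 TPM for BLOC1S5-TXNDC5 and 0.284 TPM for MMP24-AS1-EDEM2. How the counting handled these overlaps is not stated, and its part in the low values was not tested, so the levels of both genes are uncertain. The other 35 were tested.

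**Figure D1:**
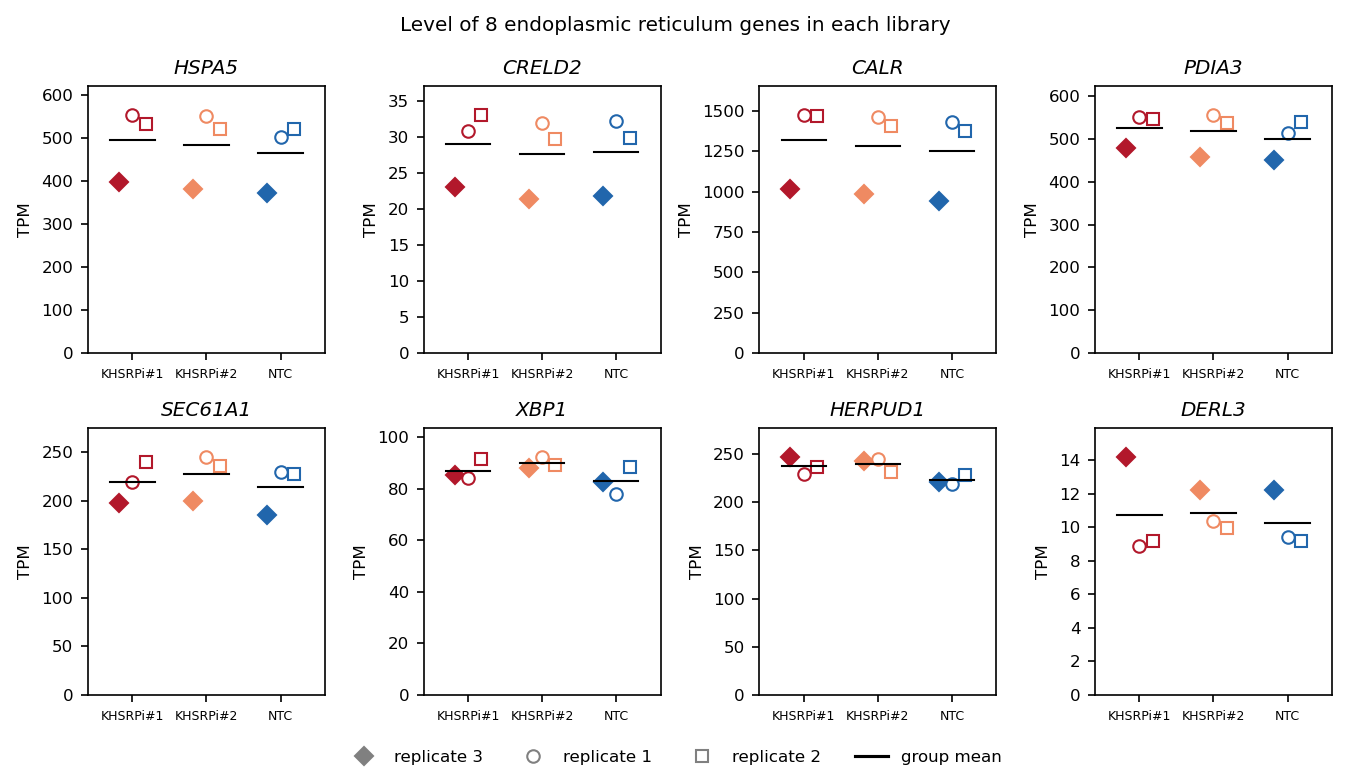
TPM of 8 of the genes in each library (vertical axis, from 0), by group on the horizontal axis; filled diamonds are replicate 3, open circles replicate 1, open squares replicate 2, and black lines the mean of 3 libraries. HSPA5, CRELD2, CALR, PDIA3 and SEC61A1 have their lowest point in replicate 3 of every group, DERL3 its highest, and XBP1 and HERPUD1 show no such order.

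The first comparison asked whether knockdown of KHSRP changed the expression of these genes. None of the 35 tested genes passed the test, neither for the mean of KHSRPi#1 and KHSRPi#2 against NTC, for either group alone, nor between KHSRPi#2 and KHSRPi#1 (limma on log2(TPM + 1), Benjamini-Hochberg adjusted p under 0.05 over 10939 genes). The counts over all genes were also small: 9 genes (0.0823%) for the mean, 6 (0.0548%) for KHSRPi#1, 6 (0.0548%) for KHSRPi#2 and 0 (0.00%) between the knockdown groups. For the mean, unadjusted p was under 0.05 for 2 of 35 members and 867 of 10939 genes, a smaller share of the members than of all genes. These counts were 0 members and 573 genes for KHSRPi#1, 3 members and 758 genes for KHSRPi#2, and 0 members and 115 genes between them. The smallest adjusted p of a member was 0.535. The fits share the NTC libraries, so they are not separate evidence.

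ERN1, the gene of the sensor IRE1 (chr17:64039142-64130819), was the member with the largest knockdown difference. It had 48.0, 52.4 and 56.8 TPM in KHSRPi#1 and 59.4, 51.3 and 58.8 TPM in KHSRPi#2, against 44.9, 48.4 and 49.2 TPM in NTC. The ranges overlapped, since the first KHSRPi#1 library lay below the highest NTC library (log2 difference 0.19, SE 0.0681, 95% interval 0.039 to 0.34, adjusted p = 0.535). HERPUD1, a scaffold of the membrane complex that exports misfolded proteins (chr16:56932048-56944863), had 229, 237 and 247 TPM in KHSRPi#1 and 245, 231 and 243 TPM in KHSRPi#2, against 219, 228 and 221 TPM in NTC. It was the 1 member with all 6 knockdown libraries above all 3 NTC libraries, by a narrow gap (log2 difference 0.10, SE 0.0401, 95% interval 0.010 to 0.19, adjusted p = 0.593). Over all tested genes 339 (3.10%) had that order, and 172 (1.57%) had all 6 knockdown libraries below NTC, none of them members. DNAJB9, an ER co-chaperone of HSPA5 (chr7:108569568-108574850), averaged 24.9 ± 2.00 TPM in the knockdown libraries (SD, n = 6) and 21.9 ± 3.29 TPM in NTC (SD, n = 3), and its values overlapped (log2 difference 0.18, SE 0.0888, 95% interval −0.015 to 0.38, adjusted p = 0.648).

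The differences of the 35 genes were small and mostly on 1 side. They ran from −0.071 (SYVN1) to 0.19 (ERN1), with a median of 0.058, against a median of 0.018 over all tested genes. In 33 of 35 the mean of the knockdown groups was above NTC, against 58.3% of all genes. Without NTC replicate 3 that number was 23, in a fit that left replicate 3 libraries in the knockdown groups alone. The other alternatives gave 28 to 34. HSPA5, the main ER chaperone also called BiP, averaged 490.3 ± 79.1 TPM with knockdown (SD, n = 6) and 466 ± 81.1 TPM in NTC (SD, n = 3). CALR averaged 1303 ± 236 TPM with knockdown (SD, n = 6) and 1253 ± 268 TPM in NTC (SD, n = 3). Each group holds 1 low replicate 3 library and the SDs are wide: the 95% interval of the difference was −0.26 to 0.40 for HSPA5 and −0.33 to 0.45 for CALR. The interval of XBP1 was narrower, −0.021 to 0.20.

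A term for replicate 3, taken from the titles and added knowing that these libraries stand apart, left the differences as they were and narrowed their intervals. The intervals of the 35 genes then all lay between −0.18 and 0.34, where without the term they reached from −0.34 to 0.45. Still 0 members passed, with 139 of all genes called higher (1.27%) and 53 lower (0.485%). The lowest adjusted p values with the term were 0.0916 for HSP90B1 and 0.0977 for ERN1. Unadjusted p was under 0.05 for 11 of 35 members and 1909 of 10939 genes, a larger share of the members than of all genes. When NTC replicate 2 was also left out, DNAJB9 passed (log2 difference 0.28, limma adjusted p = 0.0482), with 202 of all genes called (1.85%), and without any other single library no member did. A missed threshold does not show that the levels were equal, and the intervals give the changes that these libraries leave possible.

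**Figure D2:**
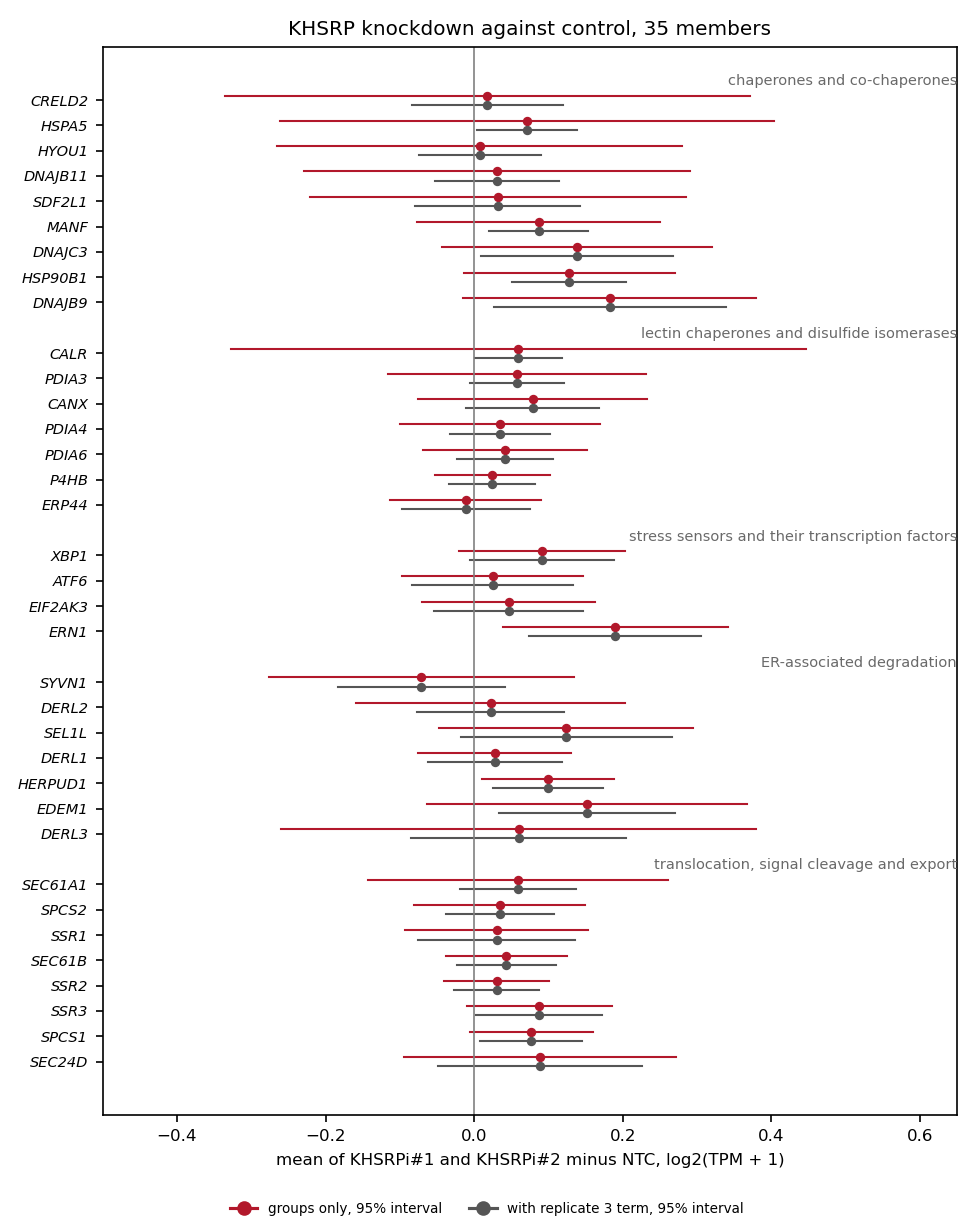
Mean of KHSRPi#1 and KHSRPi#2 minus NTC on log2(TPM + 1) for the 35 tested genes, ordered by role; points are fitted differences and bars 95% intervals, red with groups only and grey with a term for replicate 3. The grey bars are shorter, most for CALR, CRELD2 and HSPA5, and every point lies between −0.0712 and 0.19.

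The second comparison set the replicate 3 libraries against replicates 1 and 2 within the groups. The number comes from the titles, and that replicate 3 stood apart was known from earlier results of these data, so the counts describe these 9 libraries. Of the 35 genes, 16 fell in replicate 3 and 2 rose, while 17 did not pass (limma with the groups in the fit, adjusted p under 0.05). Over all genes tested, 1269 fell (11.6%) and 2045 rose (18.7%), so members were called lower in a larger share and called higher in a smaller one. With median-ratio scaling the members gave 17 lower and 2 higher, and all genes 17.3% lower and 16.9% higher. All 3 replicate 3 libraries lay below all 6 others in 15 members, against 1202 of all genes (11.0%), and above them in 1 member, against 1806 of all genes (16.5%). The median difference of the members was −0.11, against 0.028 over all tested genes. In such bulk samples fewer cells of a type and less RNA per cell cannot be told apart.

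The roles are small, so the counts by role are descriptions, to be read beside 11.6% of all tested genes lower and 18.7% higher. Of the chaperones and their co-chaperones 7 of 9 fell in replicate 3, with a median difference of −0.32, the lowest of the 5 roles. HSPA5 (chr9:125234853-125241330) had 398, 381 and 373 TPM in replicate 3 of KHSRPi#1, KHSRPi#2 and NTC, against values between 503 and 555 TPM (median 528) in the other 6 libraries. The groups did not overlap (log2 difference −0.47, SE 0.0306, adjusted p = 6.39e-06). CRELD2, an ER-resident protein known as a target of ER stress signalling (chr22:49918167-49927540), had 23.0, 21.4 and 21.8 TPM in the same 3 libraries, against values between 29.7 and 33.1 TPM (median 31.4) in the others. These were again apart (log2 difference −0.48, SE 0.0467, adjusted p = 4.46e-05). HSP90B1 (chr12:103930107-103953645) fell less, with 1442, 1378 and 1331 TPM in replicate 3, against values between 1373 and 1639 TPM (median 1572) in the rest (log2 difference −0.16, SE 0.0352, adjusted p = 0.00512). Its ranges overlapped, because NTC replicate 1 was below replicate 3 of both knockdown groups.

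HYOU1, the nucleotide exchange factor of HSPA5, had 116, 110.1 and 112 TPM in replicate 3 and between 137 and 153 TPM in the others (log2 difference −0.37, SE 0.0377, adjusted p = 6.10e-05). DNAJB11, a co-chaperone of HSPA5 that binds unfolded clients, and SDF2L1, its partner, fell by 0.35 and 0.32 on the log2 scale. MANF, a small secreted protein that binds HSPA5, fell by 0.21. None of these 4 genes had a replicate 3 library inside the range of the other 6. DNAJC3, a co-chaperone known to restrain PERK, and DNAJB9 did not pass, with differences of −0.16 (adjusted p = 0.0576) and −0.14 (adjusted p = 0.151).

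Among lectin chaperones and disulfide isomerases 5 of the 7 tested genes fell, with a median of −0.16. CALR (chr19:12938578-12944489) showed the largest difference of all members, with 1015, 986 and 945 TPM in replicate 3 of KHSRPi#1, KHSRPi#2 and NTC, against values between 1378 and 1478 TPM (median 1449) in the other 6. Replicate 3 was at 68.3% of the mean of the others (log2 difference −0.55, SE 0.0267, adjusted p = 5.31e-07). CANX (chr5:179678628-179730925), which shares its glycoprotein clients, was at 1692, 1680 and 1595 TPM in replicate 3, against values between 1701 and 2034 TPM (median 1859) in the others (log2 difference −0.17, SE 0.0409, adjusted p = 0.00949). The highest replicate 3 value of CANX was only just below the lowest of the rest. PDIA3, the isomerase that works with both lectins (chr15:43746392-43773279), had 479, 459 and 451 TPM in replicate 3, against values between 514 and 558 TPM (median 544) in the others (log2 difference −0.23, SE 0.0288, adjusted p = 0.000233), and its groups stood clear of each other. The isomerases PDIA4 and PDIA6 fell by 0.16 and 0.11. P4HB, the classical protein disulfide isomerase, had all 3 replicate 3 libraries below the others, but the difference of −0.050 did not pass (adjusted p = 0.171). ERP44, which retrieves clients from the early Golgi, was at 0.038 and did not pass.

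None of the 4 stress sensors and factors passed. XBP1 (chr22:28794555-28800597) had 85.2, 87.9 and 82.6 TPM in replicate 3, against values between 78.0 and 92.4 TPM (median 88.6) in the others, and the ranges overlapped fully (log2 difference −0.030, SE 0.0445, adjusted p = 0.638). ERN1 had 56.8, 58.8 and 49.2 TPM in replicate 3, against values between 44.9 and 59.4 TPM (median 49.9) in the others, also overlapping (log2 difference 0.11, SE 0.0531, adjusted p = 0.127). EIF2AK3 (chr2:88556741-88627576) had 20.4, 20.3 and 19.4 TPM in replicate 3, against values between 18.8 and 20.7 TPM (median 19.0) in the others (log2 difference 0.056, SE 0.0460, adjusted p = 0.379). ATF6 differed by 0.027. The values of the 4 genes describe mRNA levels and say nothing of splicing, cleavage or phosphorylation, by which these proteins are known to be activated.

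Genes of ER-associated degradation went in both directions, with 2 lower, 2 higher and 3 that did not pass. SYVN1, the ubiquitin ligase also called HRD1 (chr11:65121780-65134533), had 20.6, 19.6 and 20.8 TPM in replicate 3, against values between 22.1 and 25.8 TPM (median 24.0) in the others (log2 difference −0.24, SE 0.0514, adjusted p = 0.00502), with no overlap. DERL2, a derlin of the export channel, fell by 0.21 and also had no overlap. DERL3, another derlin (chr22:23834503-23839128), had 14.2, 12.2 and 12.2 TPM in replicate 3, against values between 8.86 and 10.4 TPM (median 9.30) in the others. It was the 1 member with all replicate 3 libraries above the rest (log2 difference 0.40, SE 0.0663, adjusted p = 0.00104). Of the exonic bases of DERL3, 77.0% lie opposite exons of SMARCB1, which stood between 67.4 and 79.0 TPM, and no source used here says whether counting used strand. EDEM1, which hands misfolded glycoproteins to degradation, had 61.3, 61.0 and 54.0 TPM in replicate 3, against values between 44.4 and 56.6 TPM (median 48.5) in the others (log2 difference 0.25, SE 0.0541, adjusted p = 0.00529). Its NTC replicate 3 library lay below the highest of the others. Without KHSRPi#1 replicate 3 its adjusted p was 0.0525, and DERL3 was the 1 member called higher. HERPUD1 at 0.034, SEL1L, the partner of SYVN1, at −0.10 and DERL1 at −0.015 did not pass.

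Of the 8 genes of translocation, signal cleavage and export, 2 fell. SEC61A1, the channel subunit through which proteins enter the ER (chr3:128051641-128071683), had 198, 199 and 186 TPM in replicate 3, against values between 219 and 245 TPM (median 233) in the others, with no overlap (log2 difference −0.26, SE 0.0357, adjusted p = 0.000361). SPCS2, an accessory subunit of the signal peptidase (chr11:74949247-74979031), had 98.8, 93.4 and 94.4 TPM in replicate 3, against values between 98.8 and 108 TPM (median 104) in the others (log2 difference −0.11, SE 0.0333, adjusted p = 0.0243), and replicate 3 of KHSRPi#1 reached the lowest of the rest. SSR2, a subunit of the translocon-associated complex (chr1:156009048-156020959), had 827, 806 and 816 TPM in replicate 3, against values between 808 and 861 TPM (median 830.3) in the others and did not pass (log2 difference −0.024, SE 0.0262, adjusted p = 0.517). SPCS1, the companion of SPCS2 in the signal peptidase (chr3:52704955-52711146), had 444, 442 and 417 TPM, against values between 399 and 446 TPM (median 427) in the others and did not pass (log2 difference 0.028, SE 0.0314, adjusted p = 0.525). Its exons lie opposite those of its neighbours over 58.1% of their bases, so its level is uncertain without strand. SEC61B, SSR1 and SSR3 differed by −0.032, −0.047 and −0.0086. SEC24D, a cargo adaptor of the COPII coat, was at 0.16 (adjusted p = 0.0815), and none of these 4 passed.

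**Figure D3:**
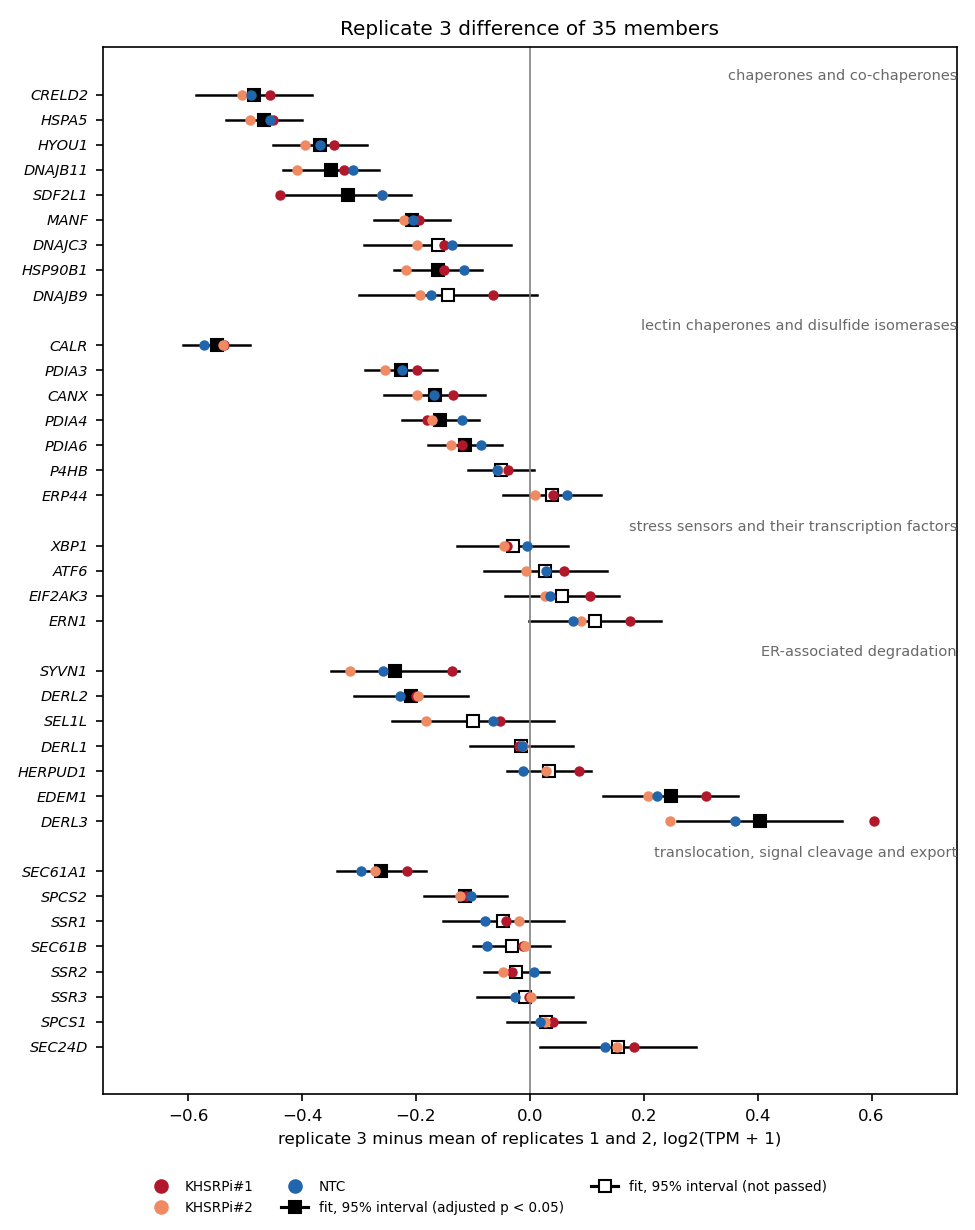
Replicate 3 minus the mean of replicates 1 and 2 on log2(TPM + 1) for the 35 tested genes by role; coloured points are the differences within KHSRPi#1, KHSRPi#2 and NTC, squares the fit with its 95% interval, filled where the adjusted p was under 0.05. All 9 chaperones lie left of 0 in all 3 groups, the fits of the 4 sensors and factors lie between −0.0302 and 0.114, and DERL3 and EDEM1 lie to the right.

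All 18 called members had a difference of the same sign in KHSRPi#1, KHSRPi#2 and NTC, as the plot of differences by group shows. The calls rest on these same differences, so the shared sign is a description and no separate evidence. CALR differed by −0.54 in KHSRPi#1, −0.54 in KHSRPi#2 and −0.57 in NTC. For HSPA5 the differences were −0.45, −0.49 and −0.46 in the same groups. DERL3 spread more, with 0.60 in KHSRPi#1, 0.25 in KHSRPi#2 and 0.36 in NTC. With 1 replicate 3 library in each group, a difference between groups was not tested. Marker genes moved in the same libraries, in which 11.6% of all tested genes fell and 18.7% rose. The marker lists are small, so their counts are descriptions. Of 9 tested among 12 plasmacytoid dendritic cell markers 6 fell and 1 rose. The list summed to 3990 to 4150 TPM in replicate 3, against 3497 to 4015 TPM in the others. IRF8, the marker that rose, has a mean of 2516 TPM and makes up most of that sum, while CLEC4C, NRP1, SPIB, BCL11A, IRF7 and GZMB fell, GZMB by 0.75 on the log2 scale. All 3 tested of the 6 plasma cell markers fell, their list at 6.05 to 8.65 TPM in replicate 3, against 12.7 to 15.1 TPM. The monocyte list summed to 36.9 to 42.0 TPM in replicate 3, against 59.4 to 91.0 TPM, and its 1 tested marker fell. The T cell list summed to 26.6 to 29.5 TPM in replicate 3, against 25.8 to 29.5 TPM, and its 1 tested marker did not pass. The part of these markers in the result was not tested.

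Genes with a long or short element in the promoter were set beside those without. All 10 genes with an element were tested, and 8 of them fell in replicate 3. Over all tested genes 11.6% fell and 18.7% rose. The 8 were all chaperones, lectin chaperones or disulfide isomerases, roles in which most tested genes fell. The parts of element and role were not tested. The 10 genes had a median difference of −0.24 and a range from −0.55 (CALR) to 0.034 (HERPUD1). Of the 20 tested genes with a listed promoter and neither element 7 fell and 1 rose, with a median of −0.075. Of the 5 without a listed promoter 1 fell and 1 rose. XBP1 and HERPUD1 carry an element, printed above, and did not pass, while DNAJB11, SEC61A1 and SYVN1 fell with neither found in the window. These are descriptions of the chosen genes, with no test, and absence from the window says nothing of other positions.

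**Figure D4:**
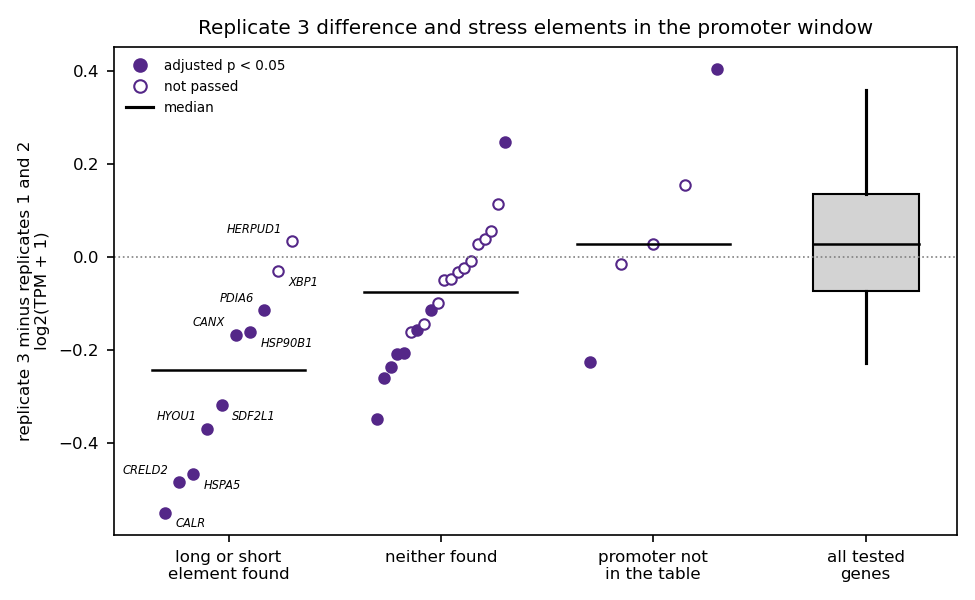
Replicate 3 minus replicates 1 and 2 on log2(TPM + 1), 1 point per gene, for genes with a long or short element in the promoter window, with neither, and with no listed promoter, beside all tested genes (box from the 25th to the 75th percentile, line at the median, whiskers to the 5th and 95th); filled points passed the test. The black lines mark medians of −0.243, −0.0751, 0.0283 and 0.0282.

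A wider set of 103 genes of the same pathway, listed by function and not by how they moved, was read in the same way. Of the 101 tested, 20 fell and 14 rose in replicate 3, against 11.6% and 18.7% of all tested genes, and the median was −0.0077, against 0.028. Several of the lists are small and lie near those shares, so the counts that follow are descriptions. By list, counting those that fell and then those that rose, the oligosaccharyltransferase had 1 and 1 of 11 and the calnexin cycle with oxidative folding 2 and 3 of 15. Further degradation genes had 6 and 3 of 16, further translocation genes 2 and 1 of 14, and the COPII coat with its cargo receptors 2 and 1 of 17. Other co-chaperones had 3 and 1 of 13, and further stress sensors with the PERK branch 4 and 4 of 15. SEC11C, a catalytic subunit of the signal peptidase, had 363, 339.9 and 306 TPM in replicate 3 of KHSRPi#1, KHSRPi#2 and NTC, against values between 379 and 458 TPM (median 430.2) in the others (log2 difference −0.33, SE 0.0313, adjusted p = 4.25e-05). UFD1, which with VCP extracts proteins from the ER membrane, had 93.5, 88.5 and 89.2 TPM in replicate 3 of KHSRPi#1, KHSRPi#2 and NTC, against values between 110.4 and 117 TPM (median 114) in the others (log2 difference −0.33, SE 0.0336, adjusted p = 5.98e-05). VCP itself, the ATPase of that step, fell by 0.27. All 3 had their replicate 3 libraries below the rest. KDELR3, a receptor that returns escaped ER proteins, had 15.1, 13.0 and 10.9 TPM in replicate 3 of KHSRPi#1, KHSRPi#2 and NTC, against values between 6.91 and 11.9 TPM (median 9.12) in the others (log2 difference 0.48, SE 0.0816, adjusted p = 0.00123), with overlapping ranges. HERPUD2, a relative of HERPUD1, rose by 0.30 and QSOX1, a sulfhydryl oxidase, by 0.26, both with no overlap. ATF4, the factor translated when PERK is active, did not pass, with 570.2, 553 and 559.8 TPM in replicate 3, against values between 509 and 564 TPM (median 543) in the others. These mRNA levels say nothing of the translation of ATF4. Of the 15 tested genes of its list 4 fell and 4 rose, against 11.6% and 18.7% of all tested genes.

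In the knockdown comparison none of these 101 genes passed without the replicate 3 term, and 6 rose with it, against 1.27% of all genes. OSTC, a subunit of the oligosaccharyltransferase that adds glycans to entering proteins, had 279, 285 and 283 TPM in KHSRPi#1 and 279.6, 286 and 283 TPM in KHSRPi#2, against 237, 257 and 254 TPM in NTC. Every knockdown library was above every NTC library (log2 difference 0.18, SE 0.0326, adjusted p = 0.0188 with the term). SEC11C had 458, 431 and 363 TPM in KHSRPi#1 and 439.5, 429 and 339.9 TPM in KHSRPi#2, against 379, 396 and 306 TPM in NTC. Its highest NTC library lay above its 2 replicate 3 knockdown libraries, while within each replicate number the knockdown libraries were higher (log2 difference 0.19, SE 0.0313, adjusted p = 0.0128 with the term). The other 4 were SELENOS, a selenoprotein of the degradation complex (0.20), ERLEC1, a lectin of the same pathway (0.18), KDELR3 (0.38) and MBTPS1, the protease that cleaves ATF6 in the Golgi (0.16). Leaving out 1 library in turn from the fit with the term gave 0 to 4 calls in place of 6. SEC11C passed in 6 of these 9 fits, OSTC in 4, SELENOS in 2 and each of the other 3 in 1. None of them passed in all 9.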

How the data were processed

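The authors deposited 1 table of TPM values per gene symbol, each library scaled to 1000000. Reads were placed on hg38 (per the submitters' processing notes). No aligner, counting tool or strand setting is named in the sources used here. RNA came from a NucleoSpin RNA Plus XS column, and Roche Kapa is named for the libraries (per the labels). TPM keeps no read totals, so the depth in reads is unknown and precision rests on replicates.

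Genes with a mean of at least 1 TPM were tested on log2(TPM + 1), which understates changes of low genes, with limma 3.58.1 in R 4.3.3 (trend, two-sided, 3 groups in 1 fit, Benjamini-Hochberg threshold 0.05). Replicate 3 was compared with replicates 1 and 2 in a fit that kept the groups. The members, lists and comparisons were chosen with earlier results of these data known. Genes given in full were up to 4 per role with the smallest p or the highest level, and up to 3 per direction of the wider lists. A few others were named after their values were seen. Gene positions are from GENCODE 29 (GRCh38) and promoters from RefSeq (GRCh38.p14). Alternatives covered pseudocounts, filters, scaling, a replicate block, variance moderation, left-out libraries and, added after seeing the data, a correction for GC content and length. The result of 1 marker list is not reported here.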

Additional observations from a re-analysis of the deposited data

How the results depend on the processing

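Changing 1 choice at a time, no member was called for the knockdown, for either group, their mean or their difference, and the lowest adjusted p for the mean was 0.0916 (limma, with the replicate 3 term). Leaving out 1 library in the fit with that term, added after seeing the data, gave 0 to 1 called members, the 1 being DNAJB9 without NTC replicate 2 (adjusted p = 0.0482). Without the term, leaving out 1 library in turn moved some of these uncalled differences across 0: −0.081 to 0.16 for HSPA5, −0.15 to 0.13 for CRELD2, −0.13 to 0.17 for CALR, −0.017 to 0.11 for PDIA3, −0.041 to 0.18 for DERL3, −0.039 to 0.11 for SEC61A1 and −0.000143 to 0.071 for SPCS2. Without NTC replicate 3, replicate 3 libraries are left in the knockdown groups alone. CRELD2 was at −0.000978 with median-ratio scaling and −0.0051 with quantile normalization, and SPCS2 at −0.018 with the GC and length correction. The cause was not tested.

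For replicate 3, 18 called members became 13 to 20 when 1 library was left out (11 to 18 lower, 1 to 3 higher; 1 higher without KHSRPi#1 replicate 3) and 24 with the GC and length correction, which was added after seeing the data and gave 24.3% of all genes lower and 19.2% higher. HSP90B1, CANX, PDIA6, EDEM1, SYVN1 and SPCS2 each lost the call under at least 1 alternative, and CANX and SPCS2 did so under 4, CANX with −0.057 after quantile normalization. Differences of 6 members, none of them called, changed sign under some alternative: ATF6, ERP44, DERL1, SSR3, SSR2 and SPCS1. SSR2 was at 0.0014 after quantile normalization, and SPCS1 at -5.49e-05 with median-ratio scaling and −0.0043 with the GC and length correction. Of the calls over all genes 61.7% were higher, against 49.5% with median-ratio scaling, 48.2% with quantile normalization and 44.1% with the GC and length correction. The 6 wider genes called with knockdown became 0 to 4.

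Deviations from the group means correlated across genes at 0.622 to 0.628 between the replicate 3 libraries of the 3 groups. Within replicates 1 and 2 the correlations were lower, between 0.0398 and 0.324. The main fits did not treat replicate numbers as pairs, so the replicate 3 shift stayed in the spread of the knockdown comparison. For HSPA5 the SE of the knockdown difference was 0.150 there and 0.0306 with the replicate 3 term. Replicate 3 was looked at separately. A replicate block gave 18 called members for replicate 3 and 0 for the knockdown. With 3 libraries a group and no read totals, small changes in low genes are not detectable.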
